A study of Mus musculus with 24 samples.

Results

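Mouse hippocampus that had lacked the histone demethylase Kdm5c throughout life was compared with hippocampus in which Kdm5c was deleted in excitatory forebrain neurons of adult mice. The comparison rests on 12 of the 18 RNA sequencing libraries of the series, all from untreated mice, in 4 groups of 3 libraries, and each library came from the pooled hippocampi of 3 mice. Lifelong loss is represented by hemizygous null males (Kdm5c -/y, labelled Kdm5c -/- (KO), here KO) and by wild-type males, both kept on a mixed F1 background of C57 and 129. Adult loss is represented by an inducible forebrain knockout (labelled Kdm5c -/- (ifKO), here ifKO), in which a CaMKIIα-creERT2 transgene acts on a floxed Kdm5c allele (Kdm5c f/f), and by control mice, both on C57BL/6J. All were males aged 2 to 4 months. The Cre recombinase of ifKO is driven by a promoter of excitatory neurons and is activated by tamoxifen, so other cells of the hippocampus keep Kdm5c. Whether the controls carried the transgene or received tamoxifen, and how long before sampling the deletion was induced, are facts that no source used here gives. The KO line was sequenced with single reads of 50 nt and the inducible line with paired reads of 75 nt on another flowcell. Each mutant was therefore set against its own control, and the difference of the effects, (KO minus wild type) minus (ifKO minus control) on the log2 scale, was tested for every gene. Genetic background, the cells that lose Kdm5c, the transgene and the sequencing differ between the lines together with the time of loss, and cannot be told apart from it.

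Kdm5c is an X-linked gene whose protein removes methyl groups from lysine 4 of histone H3 (H3K4), a mark of active promoters and enhancers. Loss of its human counterpart causes an X-linked form of intellectual disability. In neurons the enzyme is known for keeping genes of other tissues silent, among them genes of the germline, many of which are also silenced by DNA methylation laid down in the early embryo.

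Counts assigned to genes ranged from 16 to 23.4 M per library in wild type, 22 to 45.6 M in KO and 36.3 to 44 M in the inducible line. The first principal component held 68.6% of the variance and separated the lines. Prox1, a marker of dentate granule cells, stood at 96.3 to 137 CPM (a gene's counts scaled to a library of 1 M gene counts by TMM) over the 12 libraries, and Wfs1, a marker of CA1 pyramidal cells, at 89.4 to 193 CPM. A pair of libraries stood apart in markers of the choroid plexus, the tissue in the brain ventricles that makes cerebrospinal fluid: Ttr was at 533 CPM in KO library 2 and 344 CPM in control library 1 of the inducible line, against 7.70 to 41.8 CPM in the other 10. Since 1 is a mutant and the other a control, the choroid plexus list (16 tested members) had a median log2 fold change of 1.04 in KO and -1.21 in ifKO, with no member called in either. The counts below are also given without these libraries. In bulk tissue, fewer cells of a type and less RNA per cell cannot be told apart.

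Promoter windows are shown for the genes that led each outcome. By GENCODE's bounds, the genes of a pair that rose in both mutants start 750 bp apart. The genes that differed between the mutants include ones known for promoter silencing. The windows are RefSeq's (GRCm38.p6), 300 bases from 250 before to 50 after the start of transcription, written 5′ to 3′ on the gene's strand. Capitals mark every match, on either strand, of CACGTG, the E-box bound by MYC-type factors and by MGA with MAX, and of GGCGGGA (reverse complement TCCCGCC), a core bound by E2F6. These motifs do not overlap each other. The window of Cacng6 lies inside the bounds GENCODE gives the gene, which begin at 3424195. It therefore belongs to another start than the 1 used for the 750 bp. The genes shown first were higher in both mutants: Cacng6 (chr7:3424412-3424711, plus strand), Klk10 (chr7:43780804-43781103, plus strand), 3300002P13Rik (chr7:3423396-3423695, minus strand) and Dnah1 (chr14:31323847-31324146, minus strand).
Cacng6: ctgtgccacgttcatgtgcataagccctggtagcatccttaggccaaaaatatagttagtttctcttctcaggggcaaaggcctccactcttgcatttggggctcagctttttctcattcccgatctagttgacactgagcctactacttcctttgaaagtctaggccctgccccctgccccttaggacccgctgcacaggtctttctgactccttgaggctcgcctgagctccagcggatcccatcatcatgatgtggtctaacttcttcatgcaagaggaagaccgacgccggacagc
Klk10: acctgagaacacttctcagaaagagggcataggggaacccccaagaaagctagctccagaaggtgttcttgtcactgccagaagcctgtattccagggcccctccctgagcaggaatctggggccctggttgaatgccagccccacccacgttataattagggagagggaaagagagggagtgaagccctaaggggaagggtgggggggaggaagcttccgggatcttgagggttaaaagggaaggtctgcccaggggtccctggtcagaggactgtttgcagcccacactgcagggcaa
3300002P13Rik: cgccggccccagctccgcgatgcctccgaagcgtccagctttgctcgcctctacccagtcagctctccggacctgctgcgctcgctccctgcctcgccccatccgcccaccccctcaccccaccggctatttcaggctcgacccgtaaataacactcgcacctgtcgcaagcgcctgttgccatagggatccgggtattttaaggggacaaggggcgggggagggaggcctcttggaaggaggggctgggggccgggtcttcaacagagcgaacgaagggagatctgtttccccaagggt
Dnah1: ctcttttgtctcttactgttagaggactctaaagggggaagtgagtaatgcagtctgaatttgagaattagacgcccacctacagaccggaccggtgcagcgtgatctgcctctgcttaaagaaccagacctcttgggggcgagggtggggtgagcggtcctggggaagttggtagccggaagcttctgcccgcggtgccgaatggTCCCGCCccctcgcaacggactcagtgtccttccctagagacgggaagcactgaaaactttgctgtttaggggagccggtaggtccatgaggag
The genes shown next had a more positive effect in KO than in ifKO: Naa11 (chr5:97392281-97392580, minus strand), Stk31 (chr6:49395289-49395588, plus strand) and Tex14 (chr11:87404815-87405114, plus strand).
Naa11: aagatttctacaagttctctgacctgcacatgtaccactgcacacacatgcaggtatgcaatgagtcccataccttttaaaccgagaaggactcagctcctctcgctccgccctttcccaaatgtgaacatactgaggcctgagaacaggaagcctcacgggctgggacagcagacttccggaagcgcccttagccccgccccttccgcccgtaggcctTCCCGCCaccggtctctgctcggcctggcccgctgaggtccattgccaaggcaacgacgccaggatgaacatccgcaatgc
Stk31: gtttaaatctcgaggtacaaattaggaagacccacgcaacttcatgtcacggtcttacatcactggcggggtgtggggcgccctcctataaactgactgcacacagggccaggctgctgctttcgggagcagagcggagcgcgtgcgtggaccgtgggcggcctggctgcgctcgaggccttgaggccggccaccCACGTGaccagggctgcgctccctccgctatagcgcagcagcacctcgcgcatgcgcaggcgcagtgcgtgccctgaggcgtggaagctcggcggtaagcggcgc
Tex14: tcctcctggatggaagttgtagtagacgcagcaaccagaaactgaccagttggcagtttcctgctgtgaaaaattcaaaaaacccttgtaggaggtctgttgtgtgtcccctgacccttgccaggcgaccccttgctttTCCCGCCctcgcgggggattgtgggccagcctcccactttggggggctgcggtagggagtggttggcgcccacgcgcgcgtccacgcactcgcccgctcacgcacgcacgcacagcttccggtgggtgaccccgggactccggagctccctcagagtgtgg
The window of Stk31 held 1 E-box and those of Dnah1, Naa11 and Tex14 each held 1 E2F6-type core, while neither string occurs in the windows of Cacng6, Klk10 and 3300002P13Rik. Klk10 had 2 CpG dinucleotides, Cacng6 8, Dnah1 15, Naa11 16, Tex14 20, 3300002P13Rik 23 and Stk31 29. Of the 94 genes higher in both mutants 70 had a window, and its median CpG count was 10, against 21 over the 12568 tested genes with a window. The 21 windows of the genes with a more positive effect in KO had a median of 8. Among protein-coding genes alone the median was 11 in both sets and 21 over all tested genes. An E-box was found in 12.9% of the windows of genes higher in both, 23.8% of those with a more positive effect in KO, 11.1% of those of all tested genes and 7.2% of all 32851 windows of the table. The E2F6-type core was in 10%, 28.6%, 22.3% and 11.3%. For the genes with a more positive effect in KO the shares rest on 5 and 6 of 21 windows. These shares are descriptions, and a missing match says only that the letters are not in this window.

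Kdm5c itself (ENSMUSG00000025332, chromosome X, 152233020 to 152274535, GRCm38, plus strand) had 74.7, 73.2 and 75.8 CPM in wild type compared with 75.0, 74.8 and 74.6 CPM in KO. In the inducible line it had 63.4, 69.2 and 63.9 CPM in controls and 70.1, 64.9 and 66.1 CPM in ifKO. The groups overlapped in both lines, and the log2 fold change in edgeR's quasi-likelihood test was 0.01 ± 0.05 (SE, n = 3 libraries per group) for KO with an adjusted p = 0.972, and 0.03 ± 0.05 for ifKO with an adjusted p = 1.0. Since the files count reads per gene and not per exon, the loss of single exons is not checked in either mutant. No other H3K4 demethylase was called either: of 10 tested members, which include Kdm5c, the paralogues Kdm5a, Kdm5b and the Y-linked Kdm5d, and the LSD-type enzymes Kdm1a and Kdm1b, none was called in KO, in ifKO or in the difference. Kdm5a had log2 fold changes of 0.14 ± 0.05 in KO and -0.02 ± 0.05 in ifKO, Kdm5b -0.01 ± 0.05 and 0.04 ± 0.05, and Kdm5d 0.10 ± 0.05 and -0.06 ± 0.05. Kdm1a had -0.04 ± 0.04 and 0.03 ± 0.04, Kdm1b 0.05 ± 0.08 and -0.06 ± 0.07. The values of Kdm2a were 0.07 ± 0.05 and 0.07 ± 0.05, those of Kdm2b 0.04 ± 0.06 and 0.01 ± 0.06. Riox1 had 0.15 ± 0.10 and 0.05 ± 0.10, and Riox2 -0.03 ± 0.08 and -0.07 ± 0.07.

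Both mutants raised more genes than they lowered, and the genes raised by adult loss were nearly all raised by lifelong loss as well. Of 17918 genes tested, 488 (2.72%) were higher and 180 (1.0%) lower in KO, and 102 (0.569%) were higher and 3 (0.0167%) lower in ifKO. In total 94 genes (0.525%) were higher in both mutants and 3 (0.0167%) lower in both, and no gene was called with opposite signs. The 94 are 92.2% of the genes higher in ifKO and 19.3% of those higher in KO. The effect itself differed between the mutants at 35 genes, 32 (0.179%) with a more positive effect in KO and 3 (0.0167%) with a more negative one. At an unadjusted p under 0.05 the difference was reached by 1535 genes. The plot of both effects shows the called genes of each kind.

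**Figure D1:**
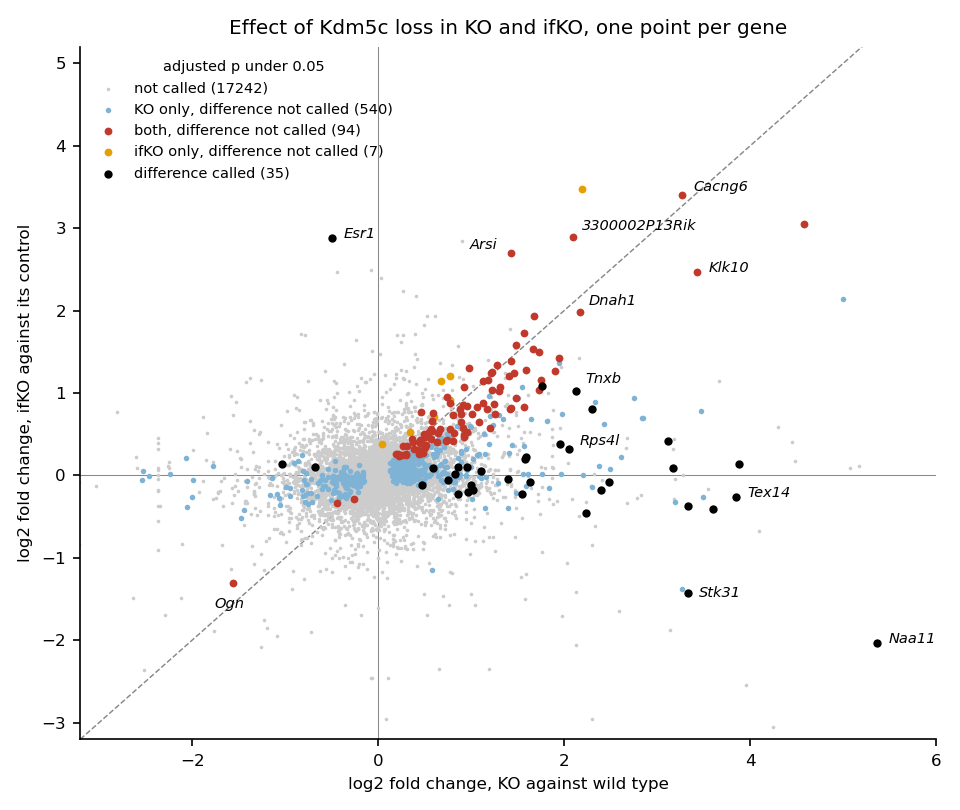
Each point is 1 gene, with its log2 fold change in KO against wild type on the horizontal axis and in ifKO against its control on the vertical axis, and the dashed line marks equal effects. Of the 35 genes whose effect differed 32 lie right of the dashed line, 15 of them with a positive value in ifKO. A further 5 of the tested genes lie outside the axes.

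These counts depended on single libraries. Genes higher in KO numbered 302 without wild-type library 2. Genes lower in KO numbered 96 without wild-type library 2, 107 without KO library 1 and 114 without KO library 3. Without control library 3 of the inducible line 64 genes were higher in ifKO and 60 in both. The 32 became 20 without KO library 1, 19 without control library 3 and 49 without wild-type library 3. Without both libraries rich in choroid plexus markers 345 genes were higher and 114 lower in KO, 91 were higher and 6 lower in ifKO, 77 were higher in both, and 25 had a more positive and 5 a more negative effect in KO. Of the genes called in KO 73.1% were higher, and once GC content and length were offset the share was 60.9% (494 higher, 317 lower), while for the difference the split went from 32 and 3 to 34 and 9. With DESeq2 the difference was split 56 and 18.

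The 94 genes higher in both mutants did not overlap between mutant and control libraries in either line, which held for 2.16% of all tested genes. Since the same libraries chose these genes, nothing is read from that count. Their median log2 fold change, raised by the same choice, was 0.92 in KO and 0.75 in ifKO, against -0.002 and -0.009 over all tested genes. It was larger in KO for 68 of them and larger in ifKO for 26, and 29 exceeded 2-fold in both. The 95% interval of the difference lay within 2-fold for 82 of the 94 and within 1.5-fold for 55. A difference past the threshold was found for 3 of them, Tnxb and Mirt1 included. Protein-coding genes made up 72 of the 94, or 76.6%, against 83.7% of all tested genes. In the controls of both lines they were expressed at low to middle levels, with a median of 7.70 CPM in wild type and 7.59 CPM in the inducible line's controls, against 14.9 and 15.4 CPM over all tested genes. Leaving out any 1 of the 12 libraries kept 53 of the 94 in every case.

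Cacng6, a γ subunit of voltage-gated calcium channels (chromosome 7, 3424195 to 3435667, plus strand), rose most in both mutants by the smaller of its effects. It had 3.30, 2.94 and 2.88 CPM in wild type compared with 30.7, 28.6 and 27.9 CPM in KO, and 1.48, 0.988 and 1.18 CPM in controls against 11.9, 14.1 and 12.9 CPM in ifKO. Every mutant library stood well above every control library of its line. The log2 fold change was 3.27 ± 0.11 in KO (adjusted p = 2.81e-11) against 3.40 ± 0.12 in ifKO (adjusted p = 6.76e-11), with a difference of -0.13 (95% interval -0.51 to 0.24). It was the only one of 22 tested calcium channel and Cacng genes to be called higher in either mutant, and Cacna2d2, an auxiliary channel subunit, fell in KO (-0.57 ± 0.15, adjusted p = 0.0409) with -0.06 ± 0.14 in ifKO, a call that ended in 9 of the 12 single-library omissions. By GENCODE's bounds, the noncoding RNA 3300002P13Rik (chromosome 7, 3421665 to 3423445, minus strand) starts 750 bp from Cacng6 on the opposite strand. It had 2.57, 2.68 and 2.21 CPM in wild type compared with 10.9, 10.3 and 10.4 CPM in KO, and 0.450, 0.220 and 0.348 CPM in controls against 2.08, 3.05 and 2.57 CPM in ifKO. Both members of the pair thus rose together in both lines, by 2.09 ± 0.15 and 2.90 ± 0.22 for 3300002P13Rik. In the controls the pair was lower in the inducible line than in the KO line.

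Klk10, a kallikrein-related secreted serine peptidase (chromosome 7, 43781035 to 43785410, plus strand), had 1.16, 1.1 and 1.00 CPM in wild type compared with 11.6, 10.8 and 12.5 CPM in KO. In the inducible line it had 0.661, 0.357 and 0.487 CPM in controls and 3.02, 2.63 and 2.71 CPM in ifKO. No library of a mutant overlapped its controls. The rise was 3.43 ± 0.15 in KO (adjusted p = 1.11e-09) against 2.47 ± 0.17 in ifKO (adjusted p = 5.41e-07), and the difference of 0.97 (95% interval 0.41 to 1.52) did not pass over all genes (adjusted p = 0.241). Its neighbour Klk9 was called in KO and not in ifKO. It rose from 5 counts in the pooled wild-type libraries to 44 in those of KO, a depth-scaled ratio of 5.55 (95% counting interval 2.21 to 17.9), and it had 11 and 17 counts in the inducible line (1.57, interval 0.694 to 3.71). Such intervals cover counting error only. Of 5 tested kallikrein genes no other was called.

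Dnah1, a heavy chain of the dynein of motile cilia (chromosome 14, 31260375 to 31323896, minus strand), had 15.2, 16.8 and 16.7 CPM in wild type compared with 73.0, 74.0 and 72.6 CPM in KO, and 11.6, 13.3 and 11.9 CPM in controls against 45.4, 51.0 and 48.7 CPM in ifKO. The levels within each group were close together, and the effects were 2.17 ± 0.06 (adjusted p = 7.46e-12) and 1.98 ± 0.06 (adjusted p = 1.71e-11), with a difference of 0.18 (95% interval -0.00 to 0.37). Of 22 tested axonemal dynein and cilia genes no other was called in either mutant, and the list's median was 0.17 in KO and -0.08 in ifKO. Of the 22, Dnah1 included, 17 were positive in KO and 6 in ifKO, against 49.1% and 45.4% of all tested genes. Vwa3b rose by 1.23 ± 0.07 and 1.26 ± 0.07 and Fhad1 by 1.18 ± 0.18 and 1.15 ± 0.16. Both were, like the other shared genes named below without a list, picked after their values were seen.

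The list of striated muscle genes held the most shared rises among the gene lists, which depends on how the lists were filled. Of 33 tested members 6 rose in KO, 5 in ifKO and 4 in both, namely Acta1, Parvg, Parvb and Myh7b, with none lower. Over all tested genes 2.72% rose in KO, 0.569% in ifKO and 0.525% in both. The list counts the neighbouring parvin genes Parvg and Parvb with muscle genes, and it was written with earlier results of these data known. The medians of the whole list were 0.02 and 0.05, so most members were near 0. Acta1, the actin of skeletal muscle (chromosome 8, 123891769 to 123894751), had 4.95, 4.47 and 4.29 CPM in wild type compared with 18.6, 16.2 and 17.6 CPM in KO, and 3.84, 4.31 and 3.55 CPM in controls against 10.5, 10.7 and 10 CPM in ifKO. It rose by 1.95 ± 0.10 in KO and by 1.42 ± 0.09 in ifKO. Parvg and Parvb encode parvins, which link integrins to actin, and lie 8338 bp apart on chromosome 15. Parvg had 17.1, 16 and 17.7 CPM in wild type, 42.9, 39.4 and 41.0 CPM in KO, 15, 15.1 and 14.1 CPM in controls and 37.0, 37.9 and 37.3 CPM in ifKO. The rise of Parvg was of like size in both mutants, 1.28 ± 0.06 and 1.34 ± 0.05, with a difference of -0.06 (95% interval -0.22 to 0.10), and Parvb rose by 0.65 ± 0.07 and 0.52 ± 0.07. Myh7b, a slow muscle myosin, rose by 0.50 ± 0.09 and 0.47 ± 0.09. Myl4, an atrial myosin light chain, passed in ifKO alone (0.92 ± 0.17, adjusted p = 0.018), but its value in KO was 0.77 ± 0.21 (adjusted p = 0.0501). Ryr1, the calcium release channel of skeletal muscle, rose in KO (0.45 ± 0.07) and had 0.19 ± 0.07 in ifKO (adjusted p = 0.564).

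Other shared genes with roles in muscle were not in the list. Jsrp1, a protein of the junctional sarcoplasmic reticulum (chromosome 10, 80808496 to 80813498), rose by 1.67 ± 0.18 in KO and 1.54 ± 0.17 in ifKO. Pgam2, the muscle form of phosphoglycerate mutase, rose by 1.49 ± 0.11 and 0.94 ± 0.11, and Capn3, a calpain of skeletal muscle, by 0.91 ± 0.07 and 0.58 ± 0.06. Col22a1, a collagen of myotendinous junctions (chromosome 15, 71795795 to 72034227), had 6.90, 6.45 and 6.79 CPM in wild type, 26.7, 21.5 and 26.6 CPM in KO, 8.15, 6.64 and 7.05 CPM in controls and 17.0, 17.7 and 18.1 CPM in ifKO. Its rise of 1.90 ± 0.10 in KO and 1.27 ± 0.09 in ifKO was the larger in KO, with a difference of 0.63 (95% interval 0.34 to 0.92) that did not pass over all genes (adjusted p = 0.115).

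**Figure D2:**
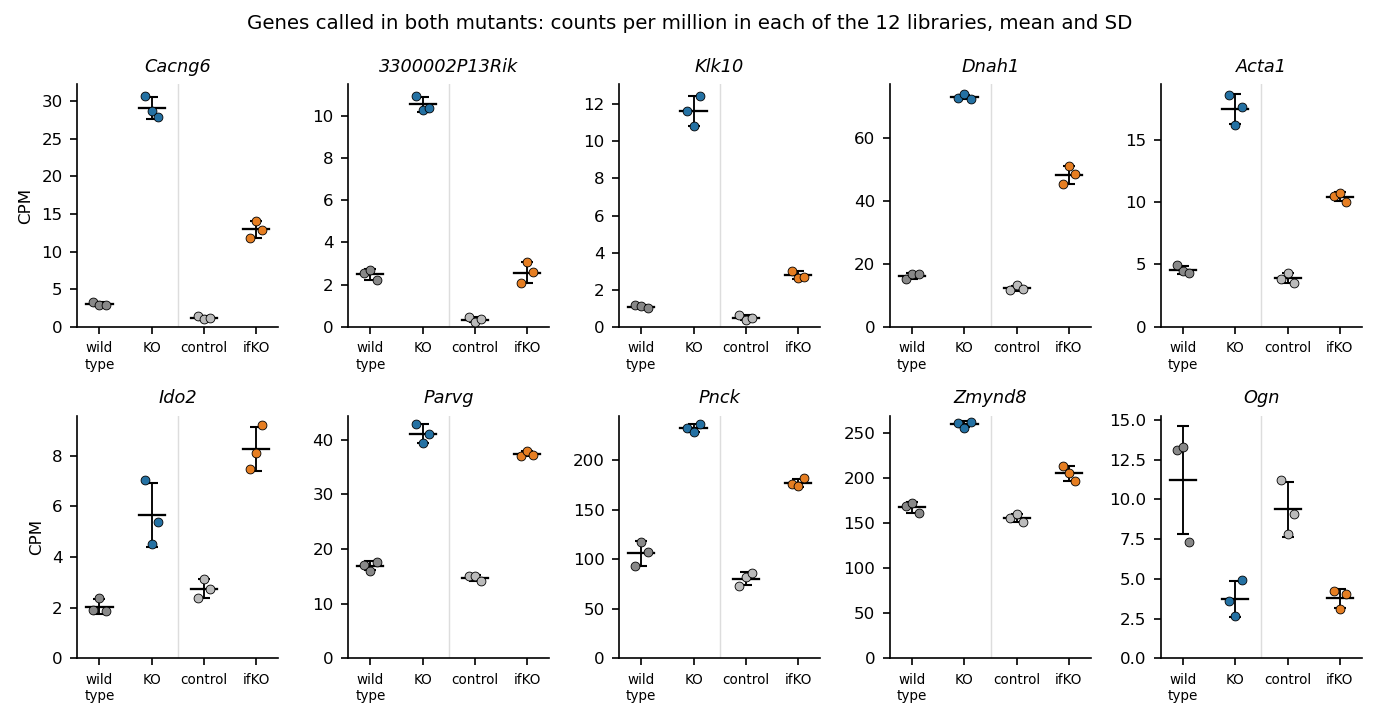
Levels in CPM (vertical axes, from 0) of 10 genes called in both mutants, with 1 point per library, the horizontal bar at the mean of 3 libraries and whiskers of 1 SD. In each panel the mutant libraries lie outside the range of their own controls, above it in 9 genes and below it for Ogn, and Parvg and Pnck rise by like amounts in KO and ifKO.

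Several other shared genes encode enzymes, transporters or secreted proteins and were not counted as a group. Ido2, which opens the ring of tryptophan in the kynurenine pathway (chromosome 8, 24531892 to 24576333), had 1.89, 2.37 and 1.88 CPM in wild type compared with 7.03, 4.53 and 5.39 CPM in KO, and 2.38, 3.13 and 2.74 CPM in controls against 7.49, 8.10 and 9.2 CPM in ifKO. It rose by 1.49 ± 0.18 and 1.59 ± 0.15. Tdo2, another enzyme of that step, fell in KO (-0.71 ± 0.11, adjusted p = 0.00141) and had -0.33 ± 0.10 in ifKO (adjusted p = 0.325), and it stood in the dentate granule cell list. Amn, which with cubilin takes up vitamin B12 in gut and kidney (chromosome 12, 111271095 to 111276426), had 2.93, 2.68 and 2.17 CPM in wild type, 6.98, 6.44 and 9.35 CPM in KO, 1.24, 1.56 and 1.18 CPM in controls and 3.19, 2.95 and 7.16 CPM in ifKO. Its rise was 1.57 ± 0.29 and 1.73 ± 0.30, and the call in ifKO, where 1 library was more than 2 times the others, ended without control library 1 (adjusted p = 0.0511) or 3 (adjusted p = 0.0786). Stra6, the receptor for retinol-binding protein, rose by 0.92 ± 0.10 and 1.08 ± 0.10. Ddo, which breaks down D-aspartate, rose by 0.74 ± 0.09 and 0.95 ± 0.09, and the lysosomal glucosidase Gaa by 0.57 ± 0.06 and 0.44 ± 0.06. Adamtsl2, a secreted glycoprotein of the microfibrils (chromosome 2, 27079379 to 27108981), had 5.25, 4.65 and 5.71 CPM in wild type, 14.9, 11.9 and 15 CPM in KO, 5, 4.78 and 4.78 CPM in controls and 13.6, 12.9 and 11.7 CPM in ifKO. The levels of Adamtsl2 were close in both lines, and its rises of 1.43 ± 0.11 and 1.39 ± 0.10 had a difference of 0.04 (95% interval -0.29 to 0.36). Itprid1, a protein with an inositol trisphosphate receptor interaction domain (chromosome 6, 55836895 to 55978735), rose by 1.73 ± 0.14 and 1.49 ± 0.13.

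The following genes were likewise singled out from the 94. Krt9, a keratin of palm and sole skin, rose by 1.21 ± 0.07 in KO and 1.25 ± 0.06 in ifKO, and Krt1 by 1.25 ± 0.15 and 0.75 ± 0.13. Pnck, a calmodulin-dependent kinase on chromosome X, had 92.8, 117 and 107 CPM in wild type, 232, 228 and 236 CPM in KO, 72.8, 82.2 and 85.5 CPM in controls and 176, 173 and 181 CPM in ifKO. That is a rise of 1.13 ± 0.07 and 1.14 ± 0.07, and the difference was -0.01 (95% interval -0.22 to 0.20). Spink8, a peptidase inhibitor and marker of CA1 (chromosome 9, 109812280 to 109826633), rose by 1.24 ± 0.08 and 0.87 ± 0.07, while the CA1 list had medians of 0.12 and -0.02 and no other member called in either mutant. Smaller rises in both were seen for Doc2a, a calcium sensor of vesicle release (0.36 ± 0.07 and 0.44 ± 0.06), the potassium channel Kcnk4 (0.55 ± 0.10 and 0.53 ± 0.09) and Lgi3, a secreted leucine-rich repeat protein (0.19 ± 0.05 and 0.26 ± 0.05). Zmynd8, a chromatin reader known to bind Kdm5c, had 169, 172 and 161 CPM in wild type compared with 260, 255 and 262 CPM in KO. In the inducible line it had 155, 160 and 151 CPM in controls and 213, 206 and 196 CPM in ifKO. Zmynd8 rose by 0.63 ± 0.04 (adjusted p = 1.27e-07) and 0.40 ± 0.04 (adjusted p = 5.03e-05), and the heat shock factor gene Hsf4 by 0.59 ± 0.10 and 0.76 ± 0.10.

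Of the noncoding RNAs, 6430584L05Rik (chromosome 6, 55396887 to 55412285) rose by 1.68 ± 0.11 in KO and 1.94 ± 0.11 in ifKO, and the antisense RNA Gm15423 (chromosome 1, 176927999 to 176932711), which stood at 0.428 to 0.5 CPM in wild type, by 1.59 ± 0.23 and 1.28 ± 0.17. Gm36937, the shared gene with the fewest counts, had 1 count in the pooled wild-type libraries and 47 in those of KO, a depth-scaled ratio of 29.6 (95% counting interval 5.07 to 1200.0), and 5 and 44 counts in the inducible line (8.94, interval 3.55 to 28.9). It is near the limit of what this depth can show.

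The 3 genes lower in both mutants were Ogn, Zfhx2 and Bmp1. Ogn, a small proteoglycan of the extracellular matrix (chromosome 13, 49608046 to 49624501), had 13.1, 13.3 and 7.33 CPM in wild type compared with 3.59, 2.67 and 4.92 CPM in KO, and 11.2, 7.79 and 9.10 CPM in controls against 4.23, 3.11 and 4.03 CPM in ifKO. No mutant library reached the lowest control library of its line. The change was -1.56 ± 0.23 in KO (adjusted p = 9.36e-04) against -1.3 ± 0.22 in ifKO (adjusted p = 0.00654), and the call in ifKO ended without ifKO library 2 (adjusted p = 0.0548). Ogn marks fibroblasts of the meninges, the membranes around the brain, and other such markers moved with it. Of 16 tested meningeal markers 15 were negative in KO and all 16 in ifKO, with medians of -0.48 and -0.34. Their summed level was 548 to 965 CPM in wild type, 346 to 647 CPM in KO, 280 to 394 CPM in controls and 206 to 267 CPM in ifKO. Over all tested genes 49.1% were positive in KO and 45.4% in ifKO. The choroid-rich libraries lean the same way. The list's mean was 2.58 log2 CPM in KO library 2, against 3.14 and 3.33 in KO libraries 1 and 3. In control library 1 it was 2.96, against 2.54 and 2.52 in control libraries 2 and 3. Besides Ogn, Lum (-0.78 ± 0.16 in KO, -0.11 ± 0.15 in ifKO) was called in KO and none other in ifKO. The part of meningeal tissue in the fall of Ogn was not tested. Zfhx2, a homeobox zinc finger gene (chromosome 14, 55060262 to 55092324, minus strand), fell by 0.44 on the log2 scale in KO and by 0.33 in ifKO, from 121 to 122 CPM in wild type to 87.1 to 91.9 CPM in KO and from 106 to 108 CPM in controls to 81.0 to 90 CPM in ifKO. Its antisense partner Zfhx2os overlaps it on the other strand and rose, by 1.08 ± 0.11 and 0.65 ± 0.10. No source used here gives the strand setting of the counting, so reads of this pair may not be separated. Bmp1, the peptidase that trims procollagen (chromosome 14, 70474558 to 70520234), had -0.26 ± 0.06 and -0.29 ± 0.06. Its calls ended without KO library 2 (adjusted p = 0.0749) or wild-type library 2 (adjusted p = 0.0962) in KO, and without any of 6 libraries in ifKO.

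Genes whose effect differed were mostly ones that rose in KO and were not called in ifKO. All 32 with a more positive effect in KO were called higher in KO and 3 of them in ifKO, and in KO none overlapped wild type, which held for 10.8% of all tested genes. Since the same KO libraries enter the difference that chose these genes, nothing is read from that count. Their median log2 fold change was 1.70 in KO and -0.05 in ifKO, with 15 of 32 positive in ifKO and values from -2.04 to 1.08. Only 18 of the 32, or 56.2%, were protein coding. In wild type 12 of them, or 37.5%, had under 1 CPM, against 19.4% of all tested genes. The controls of the lines differed by over 2-fold for 5 of the 32, or 15.6%, against 8.3% of all tested genes. Leaving out any 1 library kept 16 of the 32 in every case.

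Naa11, Stk31 and Tex14, genes of the germline, had the most positive differences among the named genes whose difference was called. Tex14, needed for the bridges between dividing germ cells (chromosome 11, 87405065 to 87555823), had 0.550, 0.834 and 1.00 CPM in wild type compared with 12.4, 10.3 and 12.7 CPM in KO. In the inducible line it had 0.582, 0.604 and 0.441 CPM in controls and 0.496, 0.478 and 0.364 CPM in ifKO. The KO libraries stood apart and the libraries of the inducible line overlapped. The effects were 3.85 ± 0.18 and -0.26 ± 0.25, and their difference was 4.11 (95% interval 3.42 to 4.8, adjusted p = 6.48e-06). By counts, Tex14 went from 52 to 1181 over the KO line, a depth-scaled ratio of 14.3 (95% counting interval 10.9 to 19.3), and from 63 to 52 over the inducible line, a ratio of 0.839 (interval 0.569 to 1.23). Naa11, a testis form of a protein acetyltransferase subunit (chromosome 5, 97382198 to 97392379), had 0.122, 0.0439 and 0 CPM in wild type compared with 3.00, 1.77 and 1.41 CPM in KO. In the inducible line it had 0.0529, 0.247 and 0.162 CPM in controls and 0.0708, 0.0266 and 0 CPM in ifKO. Its counts went from 3 to 220 in the KO line (46.3, interval 15.6 to 226) and from 18 to 4 in the inducible line (0.226, interval 0.0556 to 0.685), where the fitted value of -2.04 ± 0.91 did not pass (adjusted p = 0.846). The difference was 7.41 (95% interval 4.89 to 9.93, adjusted p = 0.0122), and its call ended without control library 2 (adjusted p = 0.092) or 3 (adjusted p = 0.068). Stk31, a germ cell kinase (chromosome 6, 49395604 to 49469501), had 0.122, 0.0439 and 0.208 CPM in wild type, 1.02, 1.63 and 1.37 CPM in KO, 0.212, 0.165 and 0.0696 CPM in controls and 0.0708, 0.0531 and 0.0280 CPM in ifKO. Its difference was 4.75 (95% interval 3.05 to 6.45, adjusted p = 0.0192), and 5 of the 12 single-library omissions ended the call.

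Rnf17, a Tudor domain protein of germ cells (chromosome 14, 56402581 to 56525032), had 0.367, 0.483 and 1.12 CPM in wild type compared with 3.33, 4.44 and 3.99 CPM in KO, and 1.38, 1.34 and 1.02 CPM in controls against 1.23, 1.2 and 1.09 CPM in ifKO. The rise of 2.48 ± 0.27 in KO met -0.08 ± 0.24 in ifKO, a difference of 2.56 (95% interval 1.78 to 3.34, adjusted p = 0.00424). Hsf2bp, a meiotic recombination factor (chromosome 17, 31944769 to 32036349), had values of 2.40 ± 0.29 and -0.18 ± 0.37. Its difference of 2.58 was just past the threshold (adjusted p = 0.0468), and 9 single-library omissions ended the call. Ddx4, the germ cell RNA helicase VASA, had 5.07, 3.95 and 4.96 CPM in wild type, 10.8, 8.98 and 7.27 CPM in KO, 5.50, 5.43 and 6.01 CPM in controls and 5.17, 5.28 and 4.31 CPM in ifKO, with a difference of 1.17 (95% interval 0.74 to 1.6, adjusted p = 0.0251).

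Of 66 listed germline genes 37 passed the filter on low counts, some only through their level in KO. Of these, 9 were higher in KO and none in ifKO, none was lower in either, and 5 had a more positive effect in KO. Over all tested genes the shares were 2.72% higher in KO, 0.569% higher in ifKO and 0.179% with a more positive effect in KO. At 0.569%, 37 genes are too few to read a 0. The medians were 0.34 in KO and -0.10 in ifKO, with 26 and 12 of 37 positive. D1Pas1, which encodes a helicase of spermatogenic cells, went from 0 counts in wild type to 88 in KO, at least 18.5-fold higher taking 3 counts in the pooled wild-type libraries as the floor, and 2 counts each over the controls and over ifKO, so no fold is given there. The difference of D1Pas1 did not pass (adjusted p = 0.362). Most of the other 29 listed genes had too few counts in all groups to be tested, which says nothing on their change. The list was written with an earlier account of these data known, so its direction is no independent evidence.

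Tnxb, Mirt1 and Neb also differed, while of the lists none of the 32 extracellular matrix genes and 1 of the 33 striated muscle genes had a called difference. Over all tested genes 0.179% had a more positive and 0.0167% a more negative effect in KO. Tnxb, the matrix protein tenascin X (chromosome 17, 34670535 to 34719815), had 31.8, 32.8 and 33.0 CPM in wild type, 147, 126 and 154 CPM in KO, 42.1, 40.1 and 41.6 CPM in controls and 72.2, 85.0 and 94.0 CPM in ifKO. Tnxb rose by 2.13 ± 0.09 in KO and by 1.02 ± 0.08 in ifKO, with a difference of 1.11 (95% interval 0.86 to 1.37, adjusted p = 2.14e-04). The noncoding RNA Mirt1 (chromosome 19, 53443230 to 53464796) rose by 1.76 ± 0.09 and 1.08 ± 0.08, with a difference of 0.68 (95% interval 0.43 to 0.94, adjusted p = 0.0251). For both genes adult loss gave a rise that was smaller than that of lifelong loss but clear of the control libraries. Neb, the muscle protein nebulin (chromosome 2, 52136647 to 52378474), rose in KO alone, from 3.30, 3.16 and 3.58 CPM to 7.03, 6.89 and 6.5 CPM, while controls had 4.82, 5.11 and 5.06 CPM and ifKO 4.04, 5.04 and 4.22 CPM. The difference of Neb was 1.19 (95% interval 0.86 to 1.53, adjusted p = 0.00168).

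**Figure D3:**
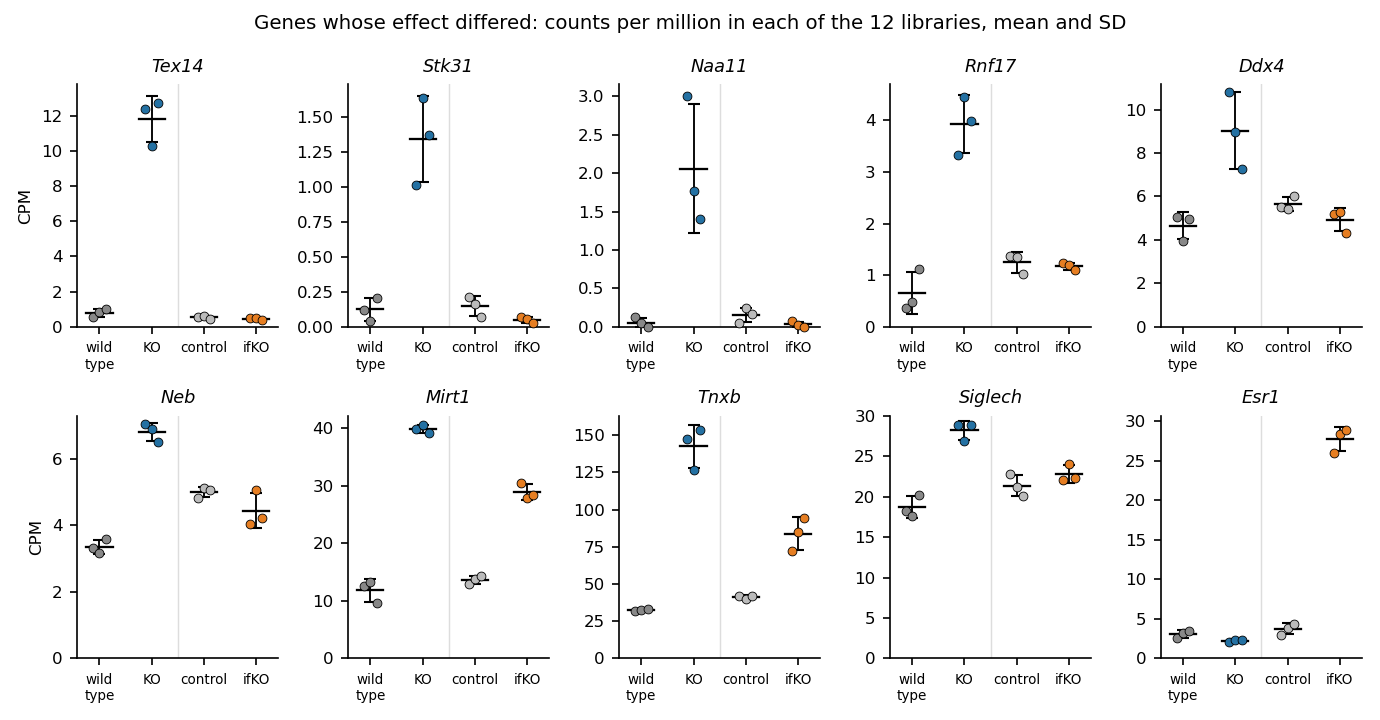
Levels in CPM (vertical axes, from 0) of 10 genes whose effect differed between the mutants, with 1 point per library, the horizontal bar at the mean of 3 libraries and whiskers of 1 SD. Tex14, Stk31, Naa11, Rnf17, Ddx4, Neb and Siglech are high in KO alone, Mirt1 and Tnxb rise in both but more in KO, and Esr1 is high in ifKO alone, at 26.0 to 28.8 CPM.

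The other 14 of the 32 were noncoding genes and pseudogenes. Gm28286 (chromosome 1, 154027363 to 154034301) had 0.0611, 0.132 and 0.0833 CPM in wild type, 1.19, 1.18 and 1.21 CPM in KO, 0.450, 0.220 and 0.232 CPM in controls and 0.189, 0.239 and 0.252 CPM in ifKO. Its neighbour A830008E24Rik (chromosome 1, 154037597 to 154117951), 3296 bp away on the same strand, had 0.183, 0.307 and 0.417 CPM in wild type, 3.48, 3.26 and 2.85 CPM in KO, 0.714, 0.631 and 0.580 CPM in controls and 0.472, 0.531 and 0.475 CPM in ifKO. The pair thus differed together, by 4.00 (95% interval 2.83 to 5.17, adjusted p = 0.00272) and 3.71 (95% interval 2.98 to 4.44, adjusted p = 3.92e-05), and both were higher in the controls of the inducible line than in wild type. On chromosome 9 the pseudogene Fbxw23 (109516388 to 109534858) lies 2242 bp from the antisense gene Gm42756, within which Gm43089 is annotated. Their effects were 3.17, 1.64 and 3.88 in KO and 0.09, -0.08 and 0.14 in ifKO, and each difference passed. Reads of overlapping genes such as Gm42756 and Gm43089 may not be separated, and the call of Fbxw23 (adjusted p = 0.047) ended in 11 of the 12 single-library omissions. Gm20083 (chromosome 7, 73185744 to 73189446) had effects of 1.54 ± 0.20 and -0.23 ± 0.20. Among more abundant RNAs, 2900052N01Rik (chromosome 9, 46913493 to 46927366) had 98.9, 82.7 and 95.7 CPM in wild type compared with 194, 210 and 195 CPM in KO, against 50.8, 49.3 and 50.1 CPM in controls and 53.0, 52.0 and 51.5 CPM in ifKO. Its difference of 1.05 (95% interval 0.88 to 1.23) had an adjusted p of 6.48e-06. Rps4l, annotated as a processed pseudogene of a ribosomal protein gene, had effects of 2.05 ± 0.11 and 0.32 ± 0.11 and a difference of 1.73 (adjusted p = 3.92e-05). Reads of such copies can be shared with their parent genes, so this value is uncertain. Neat1, the RNA that builds nuclear paraspeckles, had 0.47 ± 0.08 and -0.12 ± 0.08 (difference 0.59, adjusted p = 0.0441).

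Siglech, a receptor of microglia (chromosome 7, 55768178 to 55778925), had 18.3, 17.7 and 20.2 CPM in wild type compared with 28.9, 26.9 and 28.9 CPM in KO, and 22.8, 21.2 and 20.1 CPM in controls against 22.1, 24.1 and 22.3 CPM in ifKO. Only the KO libraries stood apart. The difference was 0.50 (95% interval 0.30 to 0.70, adjusted p = 0.047), and 10 single-library omissions ended the call. Of 17 microglia markers 3 rose in KO (Siglech, Fcrls and P2ry12) and none in ifKO, with medians of 0.10 and 0.08, and the summed level was 536 to 546 CPM in wild type, 548 to 604 CPM in KO, 507 to 598 CPM in controls and 566 to 584 CPM in ifKO. Over all tested genes 2.72% rose in KO and 0.569% in ifKO, so 17 genes are too few to read a 0 in ifKO. Rlbp1, a carrier of retinal known from glia of the retina, had 0.76 ± 0.07 and -0.06 ± 0.07 (difference 0.82, adjusted p = 0.00109). The range of cells that lose Kdm5c and the time of its loss cannot be told apart in this design.

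Esr1, Pirt and Syt2 had a more negative effect in KO. Esr1, the oestrogen receptor α gene (chromosome 10, 4611593 to 5005614), had 2.57, 3.20 and 3.46 CPM in wild type compared with 2.05, 2.36 and 2.31 CPM in KO, and 2.96, 3.90 and 4.36 CPM in controls against 26.0, 28.4 and 28.8 CPM in ifKO. It was high in ifKO alone, by 2.88 ± 0.11 (adjusted p = 2.33e-10), with -0.49 ± 0.17 in KO (adjusted p = 0.118), and the difference was -3.38 (95% interval -3.81 to -2.95, adjusted p = 5e-07). The creERT2 transgene itself encodes part of an oestrogen receptor, and counts per gene cannot tell its reads from those of Esr1. Arsi, an arylsulfatase gene beside Camk2a on chromosome 18 (60911780 to 60918561), is 1 of the 94 shared genes and had the largest excess in ifKO among them. It had 1.1, 1.05 and 1.54 CPM in wild type compared with 4.41, 2.72 and 2.68 CPM in KO, and 1.38, 1.04 and 0.928 CPM in controls against 6.83, 7.38 and 7.44 CPM in ifKO. The effects were 1.43 ± 0.23 and 2.69 ± 0.20, and the difference of -1.26 (95% interval -1.95 to -0.58) did not pass (adjusted p = 0.203). Slc6a7, the proline transporter on the other side of Camk2a (60995380 to 61014222), rose in ifKO alone (0.38 ± 0.06, adjusted p = 0.0033), with 0.05 ± 0.06 in KO. Camk2a itself had 0.13 ± 0.04 in KO (adjusted p = 0.0579) against 0.11 ± 0.04 in ifKO (adjusted p = 0.46). The part of the transgene in Esr1, Arsi and Slc6a7 was not tested. Pirt, a regulator of TRP channels in sensory neurons (chromosome 11, 66911981 to 66929876), had 4.58, 3.73 and 3.71 CPM in wild type compared with 1.95, 2.00 and 1.88 CPM in KO, with 0.13 ± 0.14 in ifKO and a difference of -1.17 (adjusted p = 0.0332). Syt2, a synaptotagmin of fast-releasing neurons (chromosome 1, 134646677 to 134762593), had 40.9, 33.3 and 28.9 CPM in wild type compared with 22.4, 19 and 21.8 CPM in KO, with 0.10 ± 0.10 in ifKO and a difference of -0.78 (adjusted p = 0.0332). The calls of Pirt and Syt2 each ended in 9 of the 12 single-library omissions.

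Only 8 genes were called in ifKO and not in KO, all of them higher, and 7 of the 8 had a positive value in KO. Besides Esr1, Slc6a7 and Myl4 they were Tmem88 (1.2 ± 0.22 in ifKO, 0.77 ± 0.27 in KO), Usp50 (1.14 ± 0.19 and 0.68 ± 0.21), Smco3 (0.53 ± 0.09 and 0.35 ± 0.11), Gm7832 (0.71 ± 0.14 and 0.61 ± 0.17) and Gm37184 (3.48 ± 0.57 and 2.19 ± 0.61). A difference past the threshold was found for Esr1 alone among the 8. The call of Gm7832 ended in 5 of the 12 single-library omissions, that of Myl4 in 4 and that of Tmem88 in 3.

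Most genes called in KO were called neither in ifKO nor in the difference, so for them the mutants are not shown to differ or to be alike. This holds for 365 of the 488 higher genes, whose medians were 0.37 in KO and 0.04 in ifKO, with 255 of the 365 positive in ifKO against 45.4% of all tested genes. It also holds for 175 of the 180 lower genes, with medians of -0.36 and -0.06 and 28 positive in ifKO. At an unadjusted p under 0.05 the difference was reached by 268 of the 365 and 135 of the 175, where the choice of genes by their value in KO favours a large difference. Among genes with a mean of at least 1 CPM in a group, the largest falls called in KO alone were Mab21l1, a regulator of eye and brain development (-2.46 ± 0.45), Sp7, a factor of bone-forming cells (-2.06 ± 0.44), Gm12576 (-1.99 ± 0.39), the endothelin-converting enzyme-like Ecel1 (-1.78 ± 0.46) and Ctxn3 (-1.47 ± 0.32), with values of -0.01 ± 0.32, 0.21 ± 0.28, -0.06 ± 0.20, 0.11 ± 0.41 and -0.52 ± 0.30 in ifKO. None of the 5 differences passed, and the call of Ecel1 in KO ended in 10 of the 12 single-library omissions, that of Ctxn3 in 3 and that of Sp7 in 1.

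In the marker lists of neurons, glia, vessels and blood, few members were called in either mutant, and besides Zfhx2 and Spink8 none was called in ifKO. Over all tested genes 2.72% were higher and 1.0% lower in KO, and 0.569% higher and 0.0167% lower in ifKO. Lists of this size are too small to read a 0 in ifKO at such shares. Inhibitory neuron markers had 4 of 22 lower in KO, Calb2 (-0.60 ± 0.10), Lamp5 (-0.36 ± 0.09), Pvalb (-0.30 ± 0.06) and Gad1 (-0.28 ± 0.05), and none called in ifKO, with medians of -0.05 and -0.03. The KO line also has libraries taken after 1 h of novelty exploration. Fitted alone, they gave -0.09 ± 0.14, -0.24 ± 0.08, -0.16 ± 0.10 and -0.02 ± 0.10 for these 4 in order. Astrocyte markers had 4 of 15 higher in KO, Aqp4 (0.27 ± 0.06), Gfap (0.25 ± 0.07), Slc1a2 (0.22 ± 0.04) and Slc1a3 (0.15 ± 0.04), and none in ifKO, with medians of 0.12 and 0.03. Of the 15, 13 were positive in KO and 12 in ifKO, against 49.1% and 45.4% of all tested genes. Their summed level was 6211 to 6725 CPM in wild type and 7073 to 7420 CPM in KO. In the inducible line it was 6428 to 6636 CPM in controls and 6649 to 6720 CPM in ifKO. Of 17 oligodendrocyte lineage markers 2 fell in KO, Mbp (-0.34 ± 0.08) among them, and of 18 endothelial and mural markers Ly6a (-0.46 ± 0.12), with none called in ifKO. Blood cell genes had 1 of 6 lower in KO, Hbb-bt (-0.81 ± 0.19). Dentate granule cell markers had 1 of 15 higher and 4 lower in KO, among them Tdo2, Npnt (-0.38 ± 0.07), Trpc6 (-0.31 ± 0.07) and Zfhx2, and Zfhx2 alone was lower in ifKO. CA2 and CA3 markers had 2 of 17 higher in KO, Map3k15 (1.15 ± 0.16, with 0.25 ± 0.16 in ifKO) and Nrip3 (0.26 ± 0.06), and none in ifKO. Of the calls named here, those of Gfap and Ly6a ended in 8 of the 12 single-library omissions, those of Lamp5, Slc1a3, Mbp, Hbb-bt and Nrip3 in 4, that of Trpc6 in 3 and that of Aqp4 in 1. The call of Slc1a2 ended with offsets for GC and length. With the novelty libraries in place of the untreated KO line, 162 of the 488 genes higher in KO were still called, and 16 of the 180 lower. Of the KO calls named here, those of Spink8, Zfhx2, Hbb-bt, Npnt and Map3k15 held there.

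In the lists of activity-regulated, synaptic, chromatin, matrix and stress genes no member had a difference past the threshold. Over all tested genes 0.179% had a more positive and 0.0167% a more negative effect in KO. In KO 2.72% were higher and 1.0% lower, and in ifKO 0.569% were higher. Lists of this size are too small to read a 0 for the difference or in ifKO. Immediate early genes, switched on by neuronal activity, had 2 of 34 higher in KO, Ptgs2 (0.50 ± 0.08) and Bdnf (0.28 ± 0.06), with medians of 0.33 in KO and 0.08 in ifKO and 31 and 26 of 34 positive. Their mean level differed as much between libraries of a group: 4.01, 4.60 and 4.45 log2 CPM in wild type, 4.89, 4.40 and 4.81 in KO, 4.2, 4.13 and 4.03 in controls and 4.48, 4.01 and 4.06 in ifKO. Glutamate receptor subunits had 3 of 24 higher and 2 lower in KO, among them Gria2 (0.33 ± 0.08), Grik3 (-0.48 ± 0.08) and Grm2 (-0.23 ± 0.06), and none in ifKO. Of the enzymes that add H3K4 methylation and their core partners (18 tested) Kmt2c rose in KO (0.34 ± 0.08, with 0.00 ± 0.07 in ifKO). Of 22 repressors of germline genes Mga rose in KO (0.45 ± 0.07, with 0.17 ± 0.07 in ifKO). Replicative helicase and fork genes had 2 of 19 lower in KO, Mcm6 (-0.75 ± 0.10, with -0.35 ± 0.08 in ifKO, adjusted p = 0.122) and Mcm9 (-0.42 ± 0.11). Of 57 clustered protocadherins Pcdhga1 (0.55 ± 0.12) and Pcdhgc5 (0.19 ± 0.04) rose and Pcdhgc4 (-0.49 ± 0.09) fell in KO, with none called in ifKO. Extracellular matrix genes had 4 of 32 lower in KO, Ogn, Lum, Npnt and Col12a1 (-0.35 ± 0.09), and Ogn alone in ifKO. Of 20 chaperone and heat shock genes Hspa1b rose in KO (0.85 ± 0.21, with 0.60 ± 0.17 in ifKO). No interferon or antigen presentation gene (23 tested) and no mitochondrially encoded gene (12 tested) was called in either mutant. Of the calls named here, that of Mcm9 ended in 9 of the 12 single-library omissions, that of Col12a1 in 6, those of Grm2 and Hspa1b in 4, those of Kmt2c and Gria2 in 3, and those of Bdnf, Pcdhga1 and Pcdhgc5 in 2. The call of Kmt2c also ended with offsets for GC and length. With the novelty libraries in place of the untreated KO line, only the KO calls of Mcm6 and Npnt held among those named here.

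**Figure D4:**
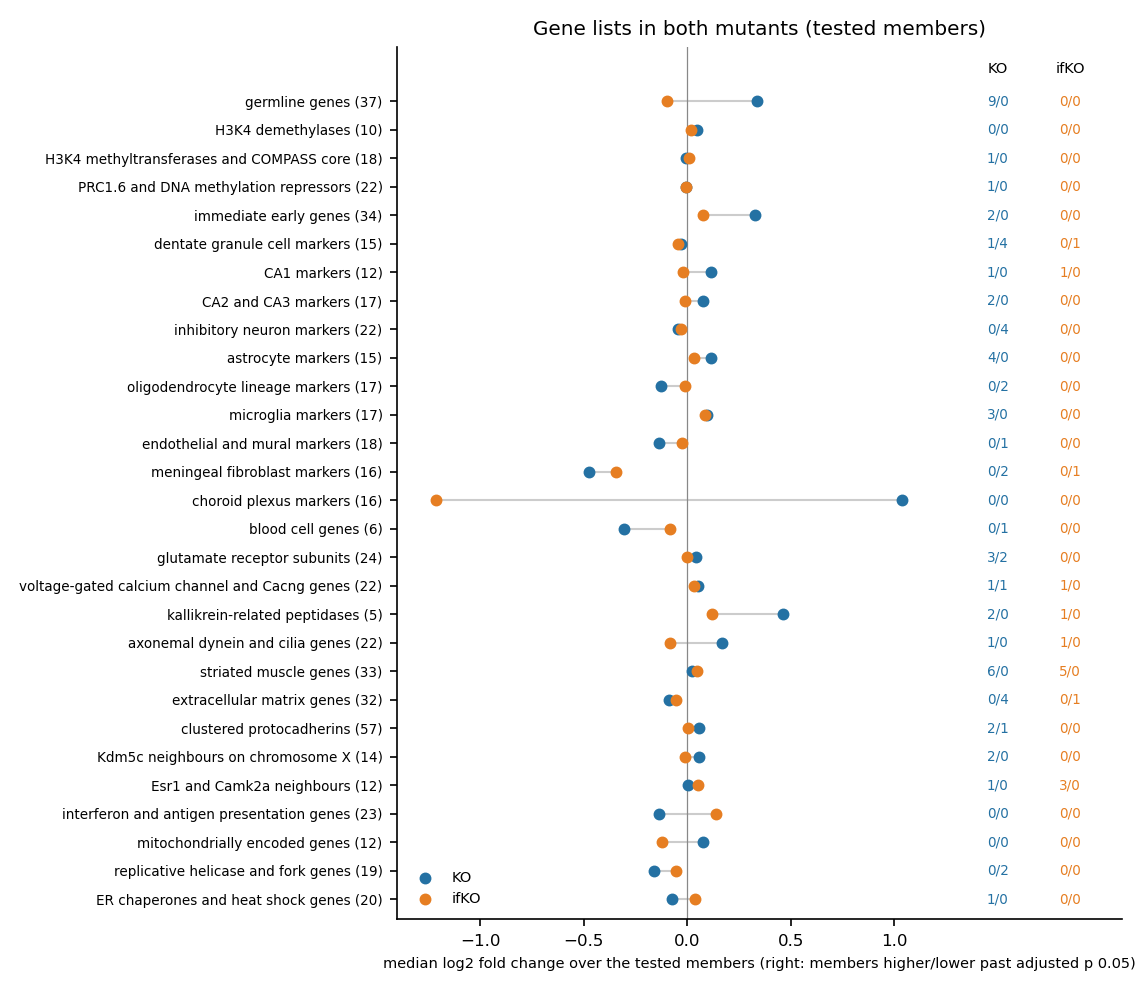
Median log2 fold change (horizontal axis) of each gene list in KO and in ifKO, with the number of tested members in brackets and, at the right, how many members were higher and lower past the threshold in each mutant. Most medians lie near 0 in both mutants, and the choroid plexus list, which follows 2 single libraries, spans from -1.21 in ifKO to 1.04 in KO with no member called.

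Of 84 tested genes within 10 Mb of Kdm5c 5 were called in KO, where 3.73% of all tested genes were called. None was higher in both and none differed, against 0.525% and 0.179% over all tested genes, and 84 genes are too few to read a 0 at such shares. Of the 94 shared genes 2, or 2.13%, were X-linked, against 3.41% of all tested genes. Of the 14 listed neighbours of Kdm5c, Wnk3 (0.39 ± 0.09) and Huwe1 (0.16 ± 0.04) rose in KO, with 0.08 ± 0.08 and 0.01 ± 0.04 in ifKO. The call of Wnk3 ended in 1 of the 12 single-library omissions and that of Huwe1 in 5, and the latter also with offsets for GC and length. Besides the pairs already named, those with gaps under 100 kb that moved together in both mutants were Spag5 and BC030499 on chromosome 11 and Cdhr4 with the overlapping Gm20661 on chromosome 9. Bmp1 and Lgi3, with 10451 bp between them on chromosome 14, went in opposite directions.

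The libraries of the KO line taken after 1 h of novelty exploration (3 wild type and 3 KO) are not part of the contrast and give the KO effect in other mice. Fitted alone, they called 102 of 15846 genes higher (0.644%) and 2 lower, and 50.1% of the genes tested there were positive. All 32 genes with a more positive effect in KO were positive there, 23 of them called, with a median of 1.76. All 93 of the shared higher genes that could be tested were positive there, 54 of them called, with a median of 0.88. The 3 genes with a more negative effect in KO were all negative there and none was called. Pirt had -0.40 ± 0.21, Syt2 -0.34 ± 0.11 and Esr1 -0.17 ± 0.19. The 102 genes were also used to choose genes without the untreated libraries. They were still chosen and grouped by a rise in KO, which favours larger values in KO than in ifKO. No such choice through other ifKO libraries could be made. Among the 31 with a log2 fold change of 0.5 to 1 after novelty the medians in the untreated libraries were 0.74 in KO and 0.44 in ifKO, and among the 47 with 1 to 2 they were 1.3 and 0.87. Among the 24 with over 2 they were 2.62 and 0.12, and 14 of these 24 differed and 5 were called in ifKO, against 3 and 19 of the 31 and 6 and 30 of the 47. Grouped instead by the KO effect in the untreated libraries, the 488 genes higher in KO had 21 of 267 called in ifKO at a log2 fold change under 0.5, 31 of 108 at 0.5 to 1, 35 of 78 at 1 to 2 and 7 of 35 over 2. Neither series of shares was tested for a trend.

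**Figure D5:**
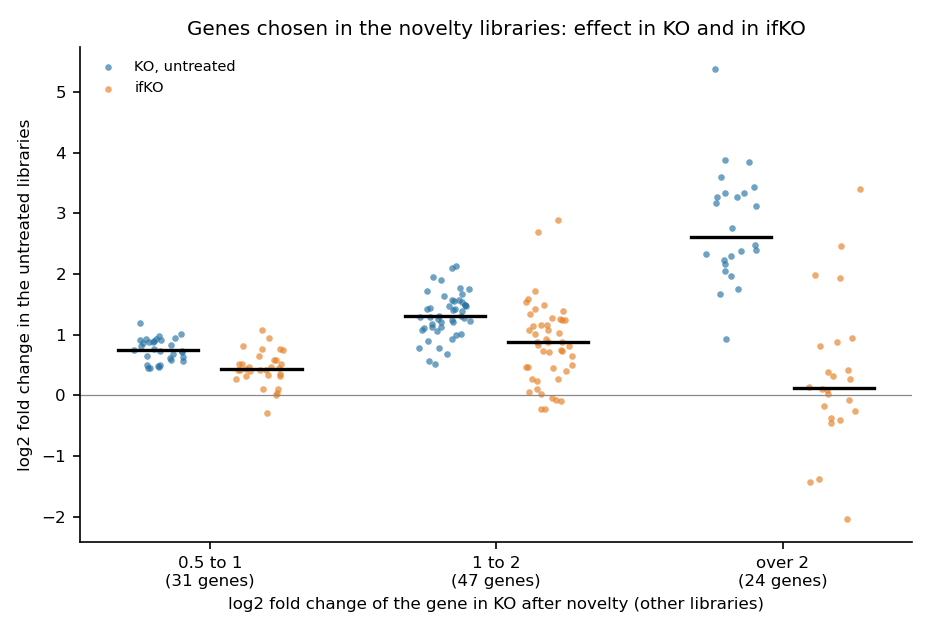
Log2 fold changes in the untreated libraries (vertical axis) of the 102 genes called higher in KO after novelty, grouped by their log2 fold change there (horizontal axis), with 1 point per gene for KO and for ifKO and a black bar at the median. The medians of KO rise from 0.74 to 2.62 over the groups, while those of ifKO are 0.44, 0.87 and 0.12. Grouping by a KO effect favours the rise in KO.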

How the data were processed

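Strand-specific RNA libraries of mouse hippocampus, each from a pool of 3 mice, were sequenced in 18 libraries, and the 12 untreated ones were compared. The deposited values are raw read counts per gene, which the authors made with STAR 2.5.0c, SAMtools 1.3 and HTSeq 0.6.1 on GRCm38, per the submitters' processing notes. No source used here gives the annotation release or the strand setting, and the extraction text speaks of cultures where all other labels say tissue. Rows for reads in no gene (14.67 to 16.7% of counts) or ambiguous (0.769 to 1.061%) were left out. Symbols and positions came from GENCODE M21 (46574 of 47069 gene IDs matched).

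Genes passing edgeR's expression filter (minimum count 10, minimum total 15; 17918 genes) were fitted in 1 quasi-likelihood model of 4 groups with TMM factors (edgeR 4.0.16, R 4.3.3, limma 3.58.1). Effects are log2 fold changes ± SE, and p-values were adjusted by Benjamini-Hochberg over all tested genes, with a threshold of 0.05. Pooled libraries of a group are separate pools, but their p-values measure only the spread between these libraries. The procedure was tested on simulated data.

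Genes named had a mean of at least 1 CPM in a group and were the first 15 shared higher, the first 10 shared lower, the 10 most positive and 10 most negative differences, the 5 largest rises and falls in 1 mutant, and up to 4 called members of each of 29 lists at any level; others were named after their values were seen, and a few genes are not reported here. Members and lists were chosen with earlier results of these data known. Alternatives included DESeq2 1.42.0, other factors, filters, offsets, blocks, depth and libraries, and those with the novelty libraries or without the choroid-rich libraries were chosen after seeing the data.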

Additional observations from a re-analysis of the deposited data

Results flagged for a closer look

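The effect, each mutant against its own control, differed between the lifelong and the adult-onset mutant by edgeR's test of the difference itself at 35 genes, 32 with a more positive and 3 with a more negative effect in KO. The differences of log2 fold changes (KO minus ifKO) were 7.41 for Naa11, 4.75 for Stk31, 4.11 for Tex14, 2.58 for Hsf2bp and 2.56 for Rnf17 among genes of the germline. For noncoding RNAs and pseudogenes they were 4.00 for Gm28286, 3.71 for A830008E24Rik, 3.08 for Fbxw23 and 1.77 for Gm20083. The protein-coding gene 4930524B15Rik had 2.71. Neb of striated muscle had 1.19 and Siglech of microglia 0.50. On the other side stood Esr1 with -3.38, Pirt with -1.17 and Syt2 with -0.78. Counts per gene cannot tell reads of the creERT2 transgene from those of Esr1, and its part was not tested. Of the 12 single-library omissions, 11 ended the call of Fbxw23 and 10 that of Siglech. The calls of Pirt, Syt2 and Hsf2bp ended in 9, that of Stk31 in 5, those of Naa11 and 4930524B15Rik in 2 and that of Gm20083 in 1. With 3 libraries in each group, no formal outlier test was run.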

How the results depend on the processing

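Counts are given in the order higher and lower in KO, higher and lower in ifKO, higher and lower in both, more positive and more negative effect in KO. Leaving out 1 library at a time they ranged from 302 to 589, 96 to 175, 64 to 113, 2 to 5, 60 to 99, 1 to 3, 19 to 49 and 1 to 9. Tests against a fold change of 1.2 gave 145, 22, 49, 1, 42, 1, 22 and 1. Without the filter on low counts they were 1333, 342, 233, 51, 170, 20, 410 and 97. With the novelty libraries in place of the untreated KO line they were 212, 36, 62, 0, 55, 0, 12 and 1. In the fit of all 18 libraries 233 genes were higher and 67 lower in KO, 1 was lower in both, and 19 and 1 differed. With each line alone 260 were higher and 58 lower in KO and 5 lower in ifKO, and no difference can be had. DESeq2 gave 6 lower in ifKO and 56 and 18 that differed. Offsets for GC content and length gave 317 lower in KO and 9 with a more negative effect. Thinning to equal depth left 20 with a more positive effect. Without both choroid-rich libraries 114 were lower in KO, 6 lower in ifKO and 5 had a more negative effect. Normalization by RLE and a stricter filter kept all 8 counts within 1.5-fold. Of the 94 shared higher genes 36 were called in every planned setting other than single-library omissions, and of the 32 with a more positive effect 13. The causes of these shifts were not tested, apart from the number of genes or libraries that a setting changes by construction.

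Replicate numbers did not pair the libraries: same-numbered libraries had correlations of deviations of -0.054, -0.121 and -0.078 in the KO line and -0.066, -0.021 and -0.094 in the inducible line. With the replicate number as a block 267 genes were higher and 85 lower in KO, 68 were higher and 2 lower in ifKO, 61 were higher in both, and 21 had a more positive effect. The block with GC and length offsets gave 7 with a more negative effect.

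Among the calls of named genes, those that changed sign were KO effects with the novelty libraries, Ctxn3 (0.14), Bdnf (-0.016) and P2ry12 (-0.057). Values that were not called are left out of this count, and some of them changed sign too. Kdm5c had 0.01 ± 0.05 in the untreated KO line and -0.24 ± 0.09 in the novelty libraries fitted alone. Genes at a few counts per library, and the exons deleted in Kdm5c, are beyond what these counts can resolve.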

Other observations

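Interferon and antigen presentation genes (23 tested) had medians of -0.14 in KO and 0.14 in ifKO, and the difference of the effects was positive for 1 of 23, with none called. The mitochondrially encoded genes (12 tested) had medians of 0.08 and -0.12, and all 12 differences were positive, again with none called.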
